A study of Mus musculus with 8 samples.

Results

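The genes described here are the 6 members of the TMBIM family (transmembrane BAX inhibitor motif proteins) whose Ensembl identifiers carry the GENCODE M21 symbols Grina, Faim2, Tmbim6, Tmbim4, Tmbim1 and Ghitm, among 39017 genes in the count table. All 6 passed the filter on low counts and were among the 17654 genes tested. The family was put together around Grina, which had been selected on its small p and its separation of cKO from WT CPM values in the same comparison of genotypes. The difference between genotypes is therefore given for the members as a description, with no p-value and no count of calls.

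RNA bound to tagged ribosomes was sequenced from hippocampi of 5 conditional knockout (cKO) pools and 3 wild-type (WT) pools, each made of 4 hippocampi. The cKO mice were CCK cre+, L10-EGFP+ and SMARCA3 fl/fl, and the WT pools came from littermates of the same cross that were not SMARCA3 fl/fl. The tag, the ribosomal protein L10 fused to EGFP, is switched on by Cre wherever Cck is or has been active, and translating ribosome affinity purification (TRAP) then pulls down its ribosomes. Age, the floxed exons and the Cre status of single animals are not given in the sources used here, and nothing states whether pools came from separate litters, so the spread between these pools may be partly technical.

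Total counts ran from 31760155 to 61823651 per library. Hltf, which encodes SMARCA3, was at 5.10, 4.49, 4.21 and 2.83 CPM (counts scaled to a common library size, with totals adjusted by trimmed means) in cKO 1 to 4 and at 11.4 CPM in the library labelled cKO 5, against 13.7, 8.39 and 9.87 CPM in WT 1 to 3 (log2 fold change -0.93, SE 0.39, edgeR adjusted p = 0.558, and -1.36 with an edgeR adjusted p of 0.359 without that library). The library labelled cKO 5 thus goes against its label for the targeted gene, and the values that rest on it are also given without it. The pull-downs held Cck at 661 ± 108 CPM in cKO (SD, n = 5) and 540 ± 112 CPM in WT (SD, n = 3). Slc17a7, the vesicular transporter that marks glutamatergic cells, was at 484 ± 44.7 CPM in cKO and 344 ± 17.9 CPM in WT. Gad1, which marks GABAergic cells, was at 49.4, 50.2, 39.8, 21.7 and 15.3 CPM in cKO 1 to 5, against 24.5, 33.5 and 44.7 CPM in WT 1 to 3. The libraries cKO 4 and the one labelled cKO 5 thus lay below all others in Gad1. The same 2 libraries had the lowest vessel marker sums (29.6 and 21.7 CPM, against 76.3 to 86.6 CPM in cKO 1 to 3 and 55.1 to 72.4 CPM in WT) and the lowest TMM scaling factors (0.976 and 0.950, against 1.01 to 1.02 in the other 6 libraries).

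TMBIM proteins are small hydrophobic proteins that cross membranes several times and share a fold with BAX inhibitor 1. They sit in the endoplasmic reticulum (ER), the Golgi, lysosomes or the inner mitochondrial membrane, where several of them carry or control calcium, and overexpression of several of them protects cells from death signals. In neurons the family is best known through Faim2, which blocks killing through the receptor Fas, and through Grina and Tmbim6, which lower the calcium content of the ER.

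Grina and Ghitm dominated the family in these pull-downs. Per length, as CPM per kilobase of annotated exon, Grina was at 132 ± 5.09 in cKO (SD, n = 5) and 98.2 ± 4.23 in WT (SD, n = 3), and Ghitm was at 100.1 ± 14.1 in cKO and 117 ± 7.34 in WT. Tmbim6 (21.3 ± 2.60 in cKO, 20.5 ± 2.14 in WT) and Faim2 (19.9 ± 2.89 in cKO, 15.6 ± 2.25 in WT) came next. Tmbim4 was at 7.92 ± 0.819 CPM per kilobase in cKO and 9.03 ± 0.464 in WT, and Tmbim1 was lowest at 0.121 ± 0.0666 in cKO and 0.110 ± 0.0613 in WT. Mean levels per kilobase placed Grina above 97.3% and Ghitm above 97.0% of the genes tested, Tmbim6 above 84.3%, Faim2 above 82.6%, Tmbim4 above 69.2% and Tmbim1 above 5.56%.

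**Figure D1:**
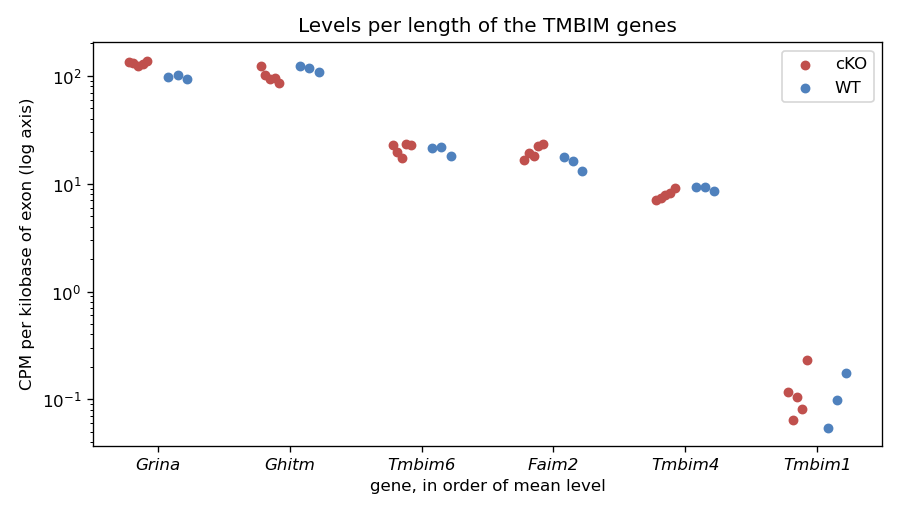
Level of each TMBIM gene in CPM per kilobase of annotated exon (log axis), with cKO libraries left of WT libraries and 1 point per library. Grina and Ghitm lie close together near 100 CPM per kilobase, and Tmbim1 lies far below the other 5 genes.

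Neighbours in this order, other than Grina and Ghitm, were compared by the ratio within each of the 8 libraries, with an exact two-sided sign-flip permutation test whose smallest possible p is 0.00781 and with adjustment over 5 pairs, Grina and Ghitm included. That pair changes order between the genotypes, so no test over the 8 libraries is given for it. Ghitm exceeded Tmbim6 by 2.34 ± 0.237 on the log2 scale (SD, n = 8 libraries, adjusted exact permutation p = 0.0130). Faim2 exceeded Tmbim4 by 1.12 ± 0.304 and Tmbim4 exceeded Tmbim1 by 6.31 ± 0.693, each in 8 of 8 libraries with the same adjusted exact permutation p of 0.0130. Tmbim6 was not separated from Faim2 (0.21 ± 0.226, adjusted exact permutation p = 0.0684), but it was without cKO 3 (0.24, adjusted exact permutation p = 0.0391). These ratios depend on the gene length. With the length of the longest transcript, Tmbim6 exceeded Faim2 by 0.98 (adjusted exact permutation p = 0.0130). With that length (11.5 kb for Faim2, 0.904 kb for Tmbim4) in place of all annotated exons (12.5 and 2.58 kb), the log2 ratio of Faim2 to Tmbim4 was -0.27.

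The leading gene of the family was not the same in both genotypes. Grina was above Ghitm per kilobase in 5 of 5 cKO libraries, and Ghitm was above Grina in all 3 WT libraries. In CPM, the ratio of Grina to Ghitm was 0.596, 0.720, 0.732, 0.742 and 0.883 in cKO 1 to 5, against 0.440, 0.471 and 0.474 in WT 1 to 3. Of the summed family level per kilobase, Grina made up 46.9 ± 1.99% in cKO and 37.7 ± 1.13% in WT, and Ghitm 35.5 ± 3.55% in cKO and 45.0 ± 0.598% in WT. The summed level of the 6 genes was 281 ± 15.2 CPM per kilobase in cKO and 261 ± 15.6 in WT. These shares contain the values by which Grina was chosen, and they are given without a test. Grina and Ghitm also have the highest and lowest GC content of the 6 genes (58.8 and 42.3%). The part of GC content in their order was not tested.

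Grina (ENSMUSG00000022564, mm10 chromosome 15, 76246764 to 76249904, plus strand), also known as TMBIM3, encodes an ER and Golgi membrane protein named after a glutamate-binding subunit once ascribed to NMDA receptors. It was at 276, 274, 257, 268 and 286 CPM in cKO 1 to 5, from 8249 to 17141 counts, against 204, 211 and 194 CPM in WT 1 to 3, from 7657 to 10607 counts. All 5 cKO libraries lay above all 3 WT libraries, the library labelled cKO 5 being the highest. The means were 272 ± 10.5 CPM in cKO (SD, n = 5) and 203 ± 8.74 CPM in WT (SD, n = 3), a log2 fold change of 0.42 (SE 0.08) or 1.34-fold. Groups that do not overlap, with cKO higher, were found for 3.38% of the genes tested, and for 1 of the 6 members, Grina, which was chosen partly for it.

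The spread of Grina among pools of one genotype was small. Its SD within groups was 0.058 on the log2 scale, against a median of 0.15 over the 708 genes within 0.5 log2 of its level, of which 1.84% had a smaller SD. The coefficient of variation was 3.86% over cKO and 4.31% over WT libraries. Small spread within groups is part of what gives a gene a small p, so this too describes how Grina was chosen. The log2 fold change was 0.40 (SE 0.08) without the library labelled cKO 5, and between 0.39 and 0.45 with any of the 8 libraries left out.

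**Figure D2:**
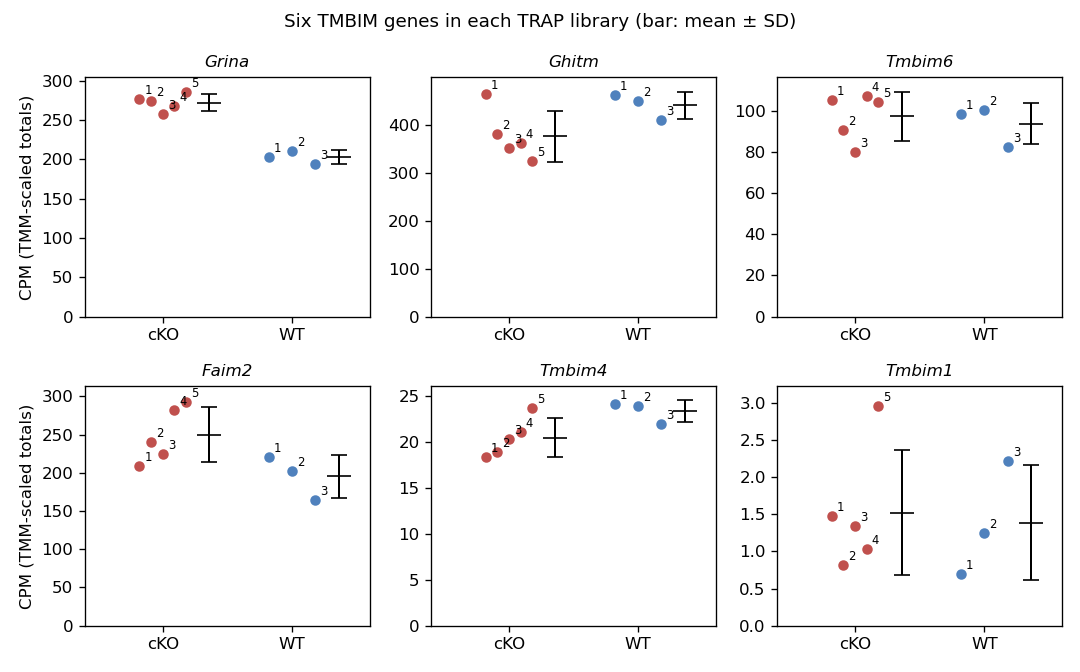
CPM of each TMBIM gene in every library, with cKO left of WT, library numbers beside the points and mean ± SD beside each group; each panel has its own axis starting at 0. The groups separate for Grina and overlap for the other 5 genes.

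Faim2 (ENSMUSG00000023011, chromosome 15, 99497012 to 99528165, minus strand), the neuronal inhibitor of Fas-mediated death, had the second largest difference in CPM upward. It was at 209, 240, 224, 283 and 292 CPM in cKO 1 to 5, against 220, 202 and 165 CPM in WT 1 to 3. Of the cKO libraries 4 lay above all WT libraries and cKO 1 lay within the WT range, so the groups overlap. Its highest values were in cKO 4 and the library labelled cKO 5, the same 2 libraries that were lowest in Gad1 and vessel markers; the part of that difference in the Faim2 value was not tested. Means were 250 ± 36.2 CPM in cKO and 196 ± 28.2 CPM in WT, with a log2 fold change of 0.35 (SE 0.14). The value rested on part of the libraries: it was 0.29 (SE 0.13) without the library labelled cKO 5, and 0.20 over the 6 libraries cKO 1 to 3 and WT 1 to 3.

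Tmbim6 (ENSMUSG00000023010, chromosome 15, 99392882 to 99410049, plus strand) encodes BAX inhibitor 1, the ER protein after which the motif is named. Tmbim6 and Faim2 lie 87.0 kb apart. Tmbim6 was at 105, 90.4, 79.7, 107 and 104 CPM in cKO 1 to 5, against 98.5, 100.2 and 82.4 CPM in WT 1 to 3. The groups cover nearly the same range, and the log2 fold change of 0.05 (SE 0.13) was -0.03 without WT 3 and 0.02 without the library labelled cKO 5.

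Tmbim4 (ENSMUSG00000020225, chromosome 10, 120201590 to 120224917, plus strand), the Golgi anti-apoptotic protein, was lower in most cKO libraries. It was at 18.3, 18.9, 20.3, 21.1 and 23.7 CPM in cKO 1 to 5, against 24.1, 23.8 and 21.9 CPM in WT 1 to 3. In cKO 1 to 4 it lay below every WT library, and in the library labelled cKO 5 it lay within the WT range. The log2 fold change was -0.19 (SE 0.14), and -0.25 (SE 0.14) without the library labelled cKO 5.

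Tmbim1 (ENSMUSG00000006301, chromosome 1, 74288247 to 74305622, minus strand), known as RECS1 and found on lysosomes and Golgi membranes, had only 26 to 109 counts per library. It was at 1.47, 0.815, 1.34, 1.04 and 2.96 CPM in cKO 1 to 5, against 0.691, 1.25 and 2.23 CPM in WT 1 to 3. The range within either genotype is wider than the difference between them. The log2 fold change of 0.13 (SE 0.56) was -0.27 without the library labelled cKO 5 and -0.19 without WT 1. Tmbim1 overlaps Pnkd on the opposite strand, which was at 241 CPM in cKO and 182 CPM in WT on average. The exons of the 2 genes do not overlap in the annotation. A further plus-strand gene, Gm29358, overlaps 3265 of the 12659 bp of Tmbim1 exon. It is not among the genes of the count table, so its level is not known. Reads from Gm29358 or from Pnkd introns could be counted as Tmbim1 if the counting did not use strand. Whether it did is not given in the sources used here.

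Ghitm (ENSMUSG00000041028, chromosome 14, 37120092 to 37135272, minus strand), also known as TMBIM5 or MICS1, is the member in the inner mitochondrial membrane, where it maintains cristae and exchanges calcium. It was at 464, 380, 352, 361 and 323 CPM in cKO 1 to 5, against 463, 448 and 409 CPM in WT 1 to 3. In 4 cKO libraries it lay below every WT library, while cKO 1 was the highest of all 8, just above WT 1. Means were 376 ± 53.1 CPM in cKO and 440 ± 27.6 CPM in WT, with a log2 fold change of -0.23 (SE 0.12), or -0.18 (SE 0.11) without the library labelled cKO 5 and -0.31 without cKO 1.

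The 6 members had no common direction. The median of their log2 fold changes was 0.09 with 4 of 6 above 0, -0.08 with 3 of 6 above 0 without the library labelled cKO 5, and -0.01 with 2 of 6 above 0 after the GC and length correction described next. The median over all genes tested was 0.02.

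The fold changes of the members ran nearly in the order of their GC content, with Tmbim6 and Tmbim1 out of place. Grina has a GC content of 58.8%, above 95.2% of the genes with a mean log2 CPM over 4, and had the largest upward change in CPM. Faim2 (54.2% GC), Tmbim6 (53.6%), Tmbim1 (52.7%) and Tmbim4 (49.4%) came between, and Ghitm (42.3%, above 16.4% of those genes) had the lowest. Over 7472 genes of that level, GC content and fold change had a Spearman rho of 0.32, given as a description because genes share libraries and are no replicates. With each library's trend on GC content and exon length removed, the log2 fold changes were 0.30 (SE 0.09) for Grina, 0.18 (SE 0.11) for Faim2, -0.13 (SE 0.15) for Tmbim4 and -0.14 (SE 0.09) for Ghitm, each nearer to 0 than before, while Tmbim6 and Tmbim1 were at -0.02 and -0.01.

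**Figure D3:**
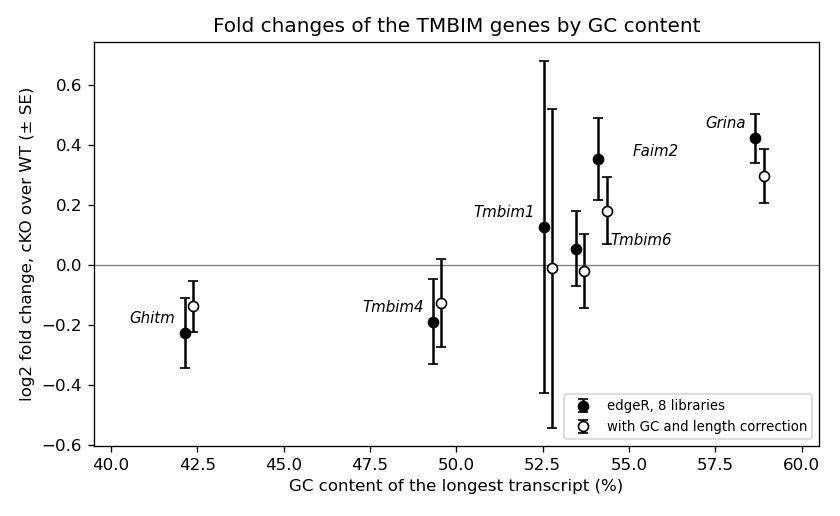
Log2 fold change, cKO over WT (± SE), of each TMBIM gene against the GC content of its longest transcript; filled points are from the fit to 8 libraries and open points from the same fit with the GC and length correction. Values go from -0.23 for Ghitm at 42.3% GC to 0.42 for Grina at 58.8% GC, and to -0.14 and 0.30 with the correction.

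Other cell types were measured beside these values. The summed CPM of 12 oligodendrocyte markers was 86.6 to 111 in the cKO libraries and 73.5 to 79.5 in the WT libraries, all 5 cKO libraries above all WT libraries. The 11 of these markers that were tested all had a log2 fold change above 0, with a median of 0.85 (0.74 without the library labelled cKO 5), and 2 markers, Opalin and Gjb1, had no count in at least 1 library. Mobp, a myelin protein gene, was at 8.65 ± 3.57 CPM in cKO and 4.14 ± 1.48 CPM in WT. The sums of astrocyte markers (335 to 506 CPM in cKO, 328 to 437 in WT), microglia markers (7.86 to 14.8 in cKO, 10.7 to 18.5 in WT) and vessel markers (21.7 to 86.6 in cKO, 55.1 to 72.4 in WT) overlapped between genotypes. The astrocyte and vessel sums rest mostly on single genes, Slc1a2 and Rgs5, which averaged 367 and 58.1 CPM over the 8 libraries. A count of 0 in at least 1 library was found for 2 of 10 astrocyte, 6 of 10 microglia and 5 of 10 vessel markers. By log2 fold change, 7 of 9 astrocyte markers tested lay above 0 (median 0.33, or 0.24 without the library labelled cKO 5), as did 2 of 7 microglia markers (median -0.12) and 3 of 5 vessel markers (median 0.86, or 0.20 without the library labelled cKO 5). The summed CPM of 12 neuron and CCK cell markers also overlapped (26007 to 29490 in cKO, 26839 to 30598 in WT). Cck, Slc17a7 and Gad1, given above, are only small parts of this sum, so its overlap does not show that they were alike. Of these 12 markers 7 had a log2 fold change above 0, with a median of 0.07. By edgeR 0 passed at an adjusted p. At an unadjusted p under 0.05, 2 were higher (1 without the library labelled cKO 5), against 5.02% of all genes tested. DESeq2 called 1 as higher, against 0.678% of genes. The part of oligodendrocyte and astrocyte RNA, or of the mix of neurons, in the TMBIM values was not tested. In pull-downs from tissue, fewer cells of a type and less RNA per cell cannot be told apart.

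The genes with profiles nearest to Grina were looked for among the 9150 other genes that averaged 10 CPM or more, by the root-mean-square difference of log2 CPM over the 8 libraries, each gene centred on its own mean. The nearest were Galnt17, a glycosyltransferase gene (0.072), Vps39, a subunit of the HOPS tethering complex (0.079), Asphd2 (0.080), Cacna1h, a T-type calcium channel (0.084), and Nsmf, which encodes the synapse-to-nucleus messenger Jacob (0.084). The median over all 9150 genes was 0.30. Without the library labelled cKO 5, Vps39, Galnt17 and Asphd2 ranked 1, 2 and 4, while Cacna1h and Nsmf ranked 13 and 19. Among the TMBIM genes Faim2 ranked 345 (0.17), Tmbim6 1375 (0.22), Tmbim4 5003 (0.32) and Ghitm 6230 (0.35), and Tmbim1 was below the CPM limit. Since Grina separates the genotypes, genes near it separate them too, and the ranking is a description.

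**Figure D4:**
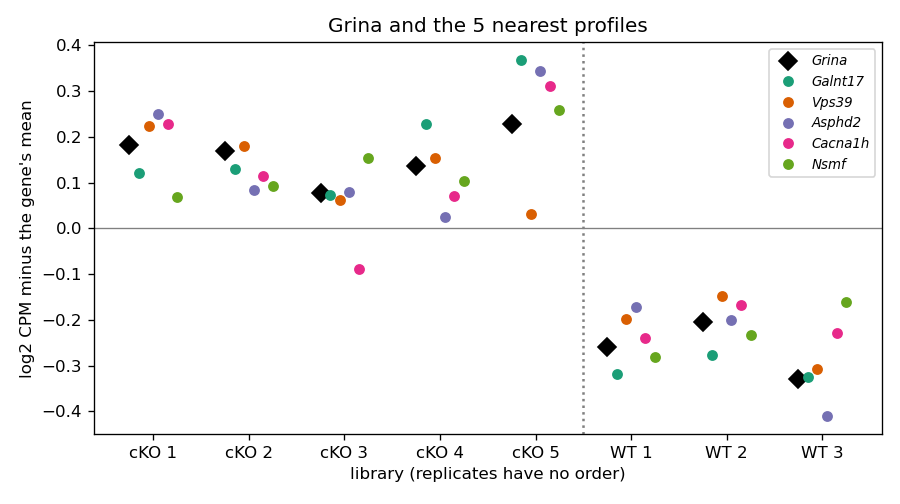
Log2 CPM minus the gene's own mean in each library for Grina (black diamonds) and the 5 genes with the nearest profiles (coloured circles), cKO libraries left and WT libraries right. Grina lies above its mean in 5 of 5 cKO libraries and below it in 3 of 3 WT libraries.

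Grina lies in a dense stretch of chromosome 15, and the 3 nearest tested genes on each side were looked at by position. Of these 6, 0 passed by edgeR at an adjusted p. Parp10 and Plec, 2 genes that overlap on the minus strand, were higher at an unadjusted p under 0.05. At that p, 5.02% of all genes tested were higher and 3.70% lower. Parp10, an ADP-ribosyltransferase gene that ends 3.32 kb before Grina, was at 1.43 CPM in cKO and 0.564 CPM in WT on average (log2 fold change 1.34, SE 0.59, edgeR adjusted p = 0.562). Plec, the gene of the cytolinker plectin, was at 9.37 CPM in cKO and 6.16 CPM in WT (0.61, SE 0.23, edgeR adjusted p = 0.522). The nearest tested gene after Grina, Smpd5, 44.4 kb away, was at 0.158 CPM in cKO and 0.269 CPM in WT (-0.75, SE 1.06, edgeR adjusted p = 0.884). The other 3 were at 0.17 (Nrbp2), 0.01 (Oplah) and 0.12 (Exosc4) on the log2 scale. No annotated exon of another gene overlaps an exon of Grina, and the microRNA gene Mir6953 inside it had 0 or 1 count per library.

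Genes of the pathways in which TMBIM proteins act were followed in 5 lists with 92 genes, of which 83 were tested. By edgeR with Benjamini-Hochberg adjustment over all genes 0 of 83 were called, as were 0% of all genes tested in either direction. At an unadjusted p under 0.05, 4 were higher and 4 lower, against 5.02% of all genes tested higher and 3.70% lower. DESeq2 gave an adjusted p for 65 of the pathway genes and called 1, Hyou1, as higher. Of the 11362 genes with an adjusted p by DESeq2, 0.678% were called higher and 0.422% lower.

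In the list of ER calcium release and refill, which holds the IP3 and ryanodine receptors, the SERCA pumps and their partners, 12 of 16 genes tested had a log2 fold change above 0, with a median of 0.10; over all genes tested 53.0% lay above 0. None of these 16 passed by edgeR at an adjusted p, and 0 had an unadjusted p under 0.05. The 3 with the smallest p were Tmco1, an ER calcium leak channel (16.6 ± 5.15 CPM in cKO, 24.3 ± 14.97 in WT, adjusted p = 0.704), Orai1, the store-operated channel (2.06 ± 0.454 in cKO, 1.37 ± 0.191 in WT, 0.709), and Calr, the ER calcium store calreticulin (121 ± 15.5 in cKO, 104 ± 22.5 in WT, 0.724). Tmco1 rested on WT 2, at 41.5 CPM; without that library its log2 fold change of -0.55 was 0.08. Calr was at 0.11 without WT 3 and 0.41 without WT 1, against 0.22 in all libraries. Of the 16 genes 10 lay above 0 without the library labelled cKO 5, and 8 with the GC and length correction.

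Of the unfolded protein response, the programme that ER stress starts, 20 of 25 genes tested lay above 0, with a median of 0.23, and 21 of 25 with the GC and length correction (median 0.23). The cKO libraries did not share this as a summed level. The summed CPM of the 26 genes listed was 1831, 1152, 1091, 1400 and 1407 in cKO 1 to 5. In WT 1 to 3 it was 1319, 1221 and 1181, so cKO 2 and 3 lay below every WT library and cKO 1 was the highest. By edgeR 0 of 25 passed at an adjusted p, while 3 were higher (Hyou1, Sdf2l1 and Syvn1) and 2 lower (Atf4 and Ppp1r15b) at an unadjusted p under 0.05, where 5.02 and 3.70% of all genes tested lie. Hyou1, an ER chaperone, was at 37.1, 35.5, 28.2, 51.6 and 41.0 CPM in cKO 1 to 5, against 28.1, 22.5 and 19.3 CPM in WT 1 to 3. The groups did not overlap, with cKO higher as in 3.38% of the genes tested, though cKO 3 lay just above WT 1. The log2 fold change of Hyou1 was 0.73 (SE 0.20, edgeR adjusted p = 0.499, DESeq2 adjusted p = 0.0469). Atf4, the transcription factor at the core of the integrated stress response, was at 96.1, 92.4, 107, 97.2 and 102 CPM in cKO 1 to 5, against 127, 127 and 112 CPM in WT 1 to 3. Here all cKO libraries lay below all WT libraries, as in 3.82% of the genes tested (log2 fold change -0.30, SE 0.10, edgeR adjusted p = 0.499). Sdf2l1, an ER cochaperone gene, had a log2 fold change of 1.10 (SE 0.44, edgeR adjusted p = 0.538), with 3 of 5 cKO libraries above 8 CPM and cKO 2 and 3 at the WT level of 3.53 to 3.83 CPM. Without the library labelled cKO 5, 20 of 25 genes lay above 0 with a median of 0.16, and Hyou1, Atf4 and Sdf2l1 were at 0.71, -0.32 and 1.01.

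In the BCL2 family, which BAX inhibitor motif proteins were named against, 9 of 14 genes tested lay above 0, with a median of 0.05, and 0 passed by edgeR at an adjusted p. At an unadjusted p under 0.05, 1 gene was higher, against 5.02% of all genes tested higher and 3.70% lower. It was Hrk, a pro-apoptotic BH3-only gene of neurons (30.6 ± 9.60 CPM in cKO, 20.9 ± 3.76 in WT, log2 fold change 0.55, SE 0.24, edgeR adjusted p = 0.563). Without the library labelled cKO 5 its log2 fold change was 0.51 and the list had 0 genes at an unadjusted p under 0.05. Without cKO 4 it was 0.36. Bad, also pro-apoptotic, was at 5.05 ± 2.16 CPM in cKO and 3.04 ± 0.890 in WT (log2 fold change 0.73, edgeR adjusted p = 0.621), with 0.46 without cKO 4. Bcl2l1, which encodes the survival protein BCL-XL, was at 21.9 ± 6.71 CPM in cKO and 16.5 ± 3.64 in WT (0.41, edgeR adjusted p = 0.705), with 0.27 without the library labelled cKO 5 and 0.26 without WT 1.

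Death receptor signalling, the pathway that Faim2 limits, was sparse. Fas was not tested, with a mean of 0.0247 CPM over the 8 libraries, nor was Fasl, with 0.00999 CPM. Of the 10 genes tested 7 lay above 0, with a median of 0.16; by edgeR 0 passed at an adjusted p and 0 at an unadjusted p under 0.05. Without the library labelled cKO 5, 8 of 10 lay above 0 with a median of 0.18. The caspase inhibitors Xiap (60.8 ± 7.95 CPM in cKO, 55.5 ± 4.54 in WT) and Birc2 (15.8 ± 2.51 in cKO, 18.5 ± 1.27 in WT) and the adaptor Fadd (2.58 ± 1.24 in cKO, 1.68 ± 0.641 in WT) had the smallest p among members that averaged 1 CPM or more, with edgeR adjusted p of 0.825, 0.751 and 0.804. The log2 fold change of Xiap was 0.13 (0.05 without cKO 4 and 0.08 without WT 1, but 0.20 without WT 3) and that of Fadd 0.62 (0.34 without WT 1).

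Of the mitochondrial calcium and inner membrane list, which holds the calcium uniporter and the partners of Ghitm, 13 of 18 genes tested lay below 0, with a median of -0.05. By edgeR 0 passed at an adjusted p, and 2 were lower at an unadjusted p under 0.05, as were 3.70% of all genes tested. The genes below 0 were 11 of 18 with a median of -0.03 both without the library labelled cKO 5 and with the GC and length correction. Micu3, a uniporter regulator of neurons, was at 304, 223, 232, 260 and 233 CPM in cKO 1 to 5, against 304, 303 and 337 CPM in WT 1 to 3. As with Ghitm, cKO 1 lay at the WT level and the other 4 cKO libraries below it (log2 fold change -0.33, SE 0.11, edgeR adjusted p = 0.499). Vdac2, an outer-membrane channel, was at 113 ± 13.7 CPM in cKO and 136 ± 4.25 in WT (-0.27, SE 0.11, edgeR adjusted p = 0.553), and Letm1, an inner-membrane cation exchanger, at 56.0 ± 6.06 CPM in cKO and 66.6 ± 7.90 in WT (-0.25, SE 0.13, edgeR adjusted p = 0.615; -0.15 without WT 1). Without the library labelled cKO 5, Micu3, Vdac2 and Letm1 were at -0.31, -0.22 and -0.29.

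**Figure D5:**
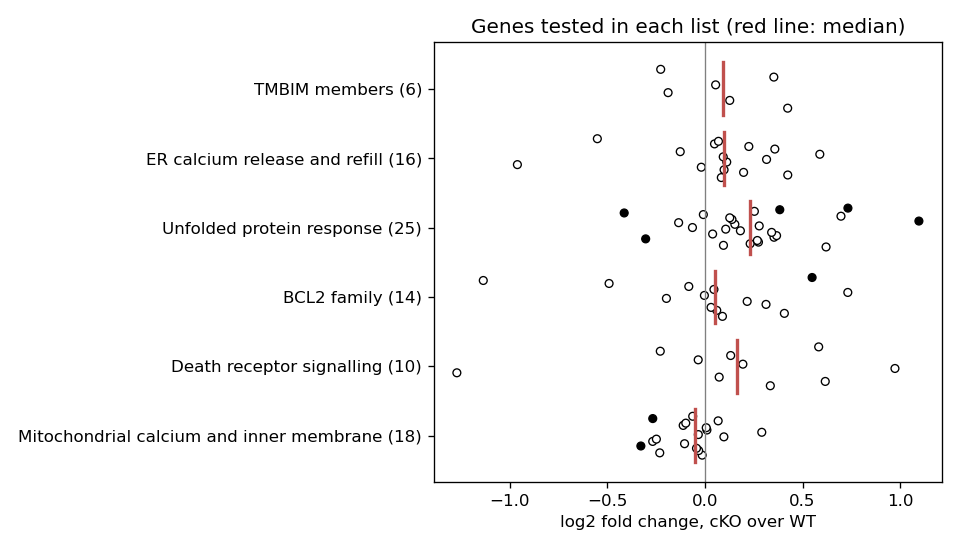
Log2 fold change, cKO over WT, of every gene tested in the TMBIM family and in the 5 pathway lists, 1 circle per gene, numbers of genes in brackets and medians as red lines. Filled circles mark pathway genes with an unadjusted edgeR p under 0.05, which was not marked for the TMBIM genes. List medians lie between -0.05 and 0.23.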

How the data were processed

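Per the submitters' processing notes, reads were aligned with STAR 2.5.3a to mm10 and counted with HTSeq; the authors deposited the raw counts per Ensembl gene. Annotation release, strandedness and filters are not given in the sources used here. Symbols, positions, exon lengths and GC content came from GENCODE M21 (GRCm38, the assembly of mm10), which named 37607 of 39017 genes.

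The main analysis used edgeR 4.0.16 (R 4.3.3): TMM scaling, filterByExpr by group, a robust quasi-likelihood fit on 8 libraries and the coefficient of genotype (cKO over WT) tested on both sides, adjusted by Benjamini-Hochberg over 17654 genes and called under 0.05. The SE is the log2 fold change divided by the root of F. DESeq2 1.42.0 was an alternative, with an adjusted p for 11362 genes. The GC and length correction subtracts each library's spline trend (4 df each) through offsets. Levels per length are CPM over kilobases of the union of exons; log2 CPM used a prior count of 2. Figures used matplotlib 3.10.9.

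Members and lists were chosen with earlier results of these data known. Named are the 6 members, Hltf, Cck, Slc17a7, Gad1, Mobp, the 3 genes of smallest p that average 1 CPM or more in each pathway list, and the 5 genes nearest to Grina. Genes chosen after their values were seen or by position (Ppp1r15b, Syvn1, Parp10, Plec, Smpd5, Nrbp2, Oplah, Exosc4, Pnkd, Gm29358, Mir6953, Fas, Fasl, Slc1a2, Rgs5, Opalin, Gjb1) stand outside that rule. The numbers of the libraries are not stated to pair them.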

Additional observations from a re-analysis of the deposited data

Results flagged for a closer look

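Of 32 sets of 5 cKO libraries examined with Dixon's test for a library far from the others, 2 passed, where 1.6 would pass by chance. The level of Hltf was 11.4 CPM in the library labelled cKO 5, against 2.83 to 5.10 CPM in the other cKO libraries and 8.39 to 13.7 CPM in WT, a gap of 0.737 of the range. The summed microglia markers in cKO 4 were at 7.86 CPM, against 13.4 to 14.8 CPM in the other cKO libraries and 10.7 to 18.5 CPM in WT, a gap of 0.809 of the range. This sum is low, and 6 of its 10 markers had a count of 0 in at least 1 library. No TMBIM gene was among the 2 sets that passed.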

How the results depend on the processing

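Over 17 alternatives, Grina, Faim2, Tmbim4 and Ghitm kept their direction, and 11 changes of sign fell to Tmbim1 and Tmbim6. Of 102 comparisons for members, 3 moved by more than the spread within groups: Grina to 0.30 with the GC and length correction, and Grina to 0.33 and Faim2 to 0.11 over 6 libraries with the replicate block and that correction. With the replicate block alone over 6 libraries Grina was at 0.40, as it was there without it, and edgeR called 0 genes. Deviations of same-numbered libraries had r of -0.21, 0.058 and 0.080 across 7548 genes. So few correlations cannot show whether the numbers pair the libraries, and the labels do not say. Genes called numbered 2 without any filter, 2 when 3 libraries had to reach 1 CPM, 125 by DESeq2, 10 over 6 libraries, 1 there with the block and the correction, and 0 with any library left out; DESeq2 called 1 pathway gene. With the length of the longest transcript, the log2 ratio of Tmbim6 to Faim2 was 0.98 (adjusted exact permutation p = 0.0130) and that of Faim2 to Tmbim4 -0.27. With a library left out, Tmbim6 over Faim2 ran from 0.17 to 0.24, passing without cKO 3 (adjusted exact permutation p = 0.0391), Hltf from -1.36 to -0.70 and Tmco1 from -0.83 to 0.077. Bcl2l1 reached -0.0012 over 6 libraries with the block and the correction. The causes were not tested. Depth limits Tmbim1, with at most 109 counts.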
